A study of Danio rerio with 12 samples.

Results

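The comparison described here is that of lesioned with control retina of adult zebrafish at 14 days post-lesion, the latest time in a series of 12 arrays. It rests on 2 arrays, 1 of lesioned and 1 of control retina, and the members are the probe sets that carry a single gene symbol, 10795 of 15502 in all. Of these, 6884 probe sets for 5969 genes passed a filter on low signals and were compared. The other 10 arrays held 1 brain, 1 unlesioned retina called a true control by the submitters, and control and lesioned retinas of days 2, 3, 5 and 7. All were total RNA from adult fish with no strain or transgene named in the labels, and the control retinas came from animals matched to the lesioned ones, with at least 8 for each condition per the design text. The labels do not say how the lesion was made, how many animals stand behind an array or whether RNA was pooled.

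The zebrafish retina regrows neurons after injury. Müller glia, the radial glia that span the retina, take on a reactive state, re-enter the cell cycle and give rise to progenitors that migrate and differentiate, while microglia and other immune cells clear debris. Retinal ganglion cells, whose axons form the optic nerve, can in fish also regrow a cut axon, with a growth program of tubulins, growth cone proteins and stress transcription factors. Late samples can therefore hold an early response that has faded, a response that has persisted, and genes of neurons that are still growing.

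Each value is a scaled signal intensity of 1 probe set on 1 array, and differences are log2(signal + 50) of the lesioned array minus that of the control array of the same day. With 1 array a side the day 14 difference itself carries no p. The limma fits that include day 14 take its spread from the other arrays, on the assumption that the single lesioned array varies like them. A gene was called higher at day 14 when the difference was at least 1.5-fold, 0.585 on the log2 scale, and the lesioned array lay above all 3 unlesioned retinas of the same array group, which are the true control and the controls of days 2 and 14. It was called lower by the mirrored rule. The array group was set by hybridization control probe sets, whose mean signal was 3315 to 4052 on the brain, true control, day 2 and day 14 arrays and 5632 to 8981 on the arrays of days 3, 5 and 7. The 5'/3' signal ratio of GAPDH, often read as a sign of RNA integrity, was 0.807 on the lesioned and 0.854 on the control array of day 14. On days 3, 5 and 7 it was 0.103 to 0.245. The 2 arrays compared here thus lay close together in this ratio, and the middle days lay apart from them. As the low ratios fall on all arrays of the other array group, RNA quality and array group cannot be told apart here.

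The tissue carried the markers of retina. The rod transducin gene gnat1 had a signal of 23564.4 in the lesioned and 29079.6 in the control retina of day 14, against 312.5 in brain. The summed signal of 4 Müller glia markers was 19278.9 and 19755.9, against 13628 in brain. That sum thus sets retina apart from brain far less than gnat1 does. Summed signal of 4 brain markers was 157.3 in the lesioned retina, 136.7 to 180.4 in the 3 unlesioned retinas of the array group and 33622.2 in brain. Several defining markers, among them rho for rods, mpeg1.1 for macrophages and rbpms2b for ganglion cells, had no probe set named here.

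At 14 days the lesioned retina was close to its matched control. Only 2.05% of the 6884 probe sets stood at least 1.5-fold apart, 104 higher and 37 lower, against 7.05%, 14.3%, 9.67% and 8.21% on days 2, 3, 5 and 7. Of these days only day 2 shares the array group of day 14. How far array group and RNA quality add to the shares of days 3, 5 and 7 was not tested. The 3 unlesioned retinas of the array group differed from each other at 6.35% to 8.72% of probe sets, so the matched pair of day 14 was closer together than any pair of these 3. The spread of differences, as a standard deviation over probe sets, was 0.23 for the day 14 pair and 0.33 to 0.38 for the unlesioned pairs. The plot of probe sets past 1.5-fold by array pair shows this order.

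**Figure D1:**
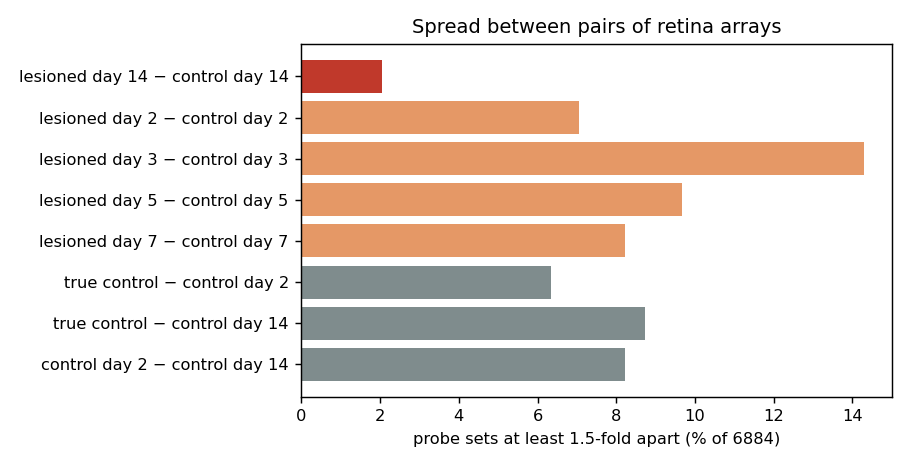
Bars give the percent of 6884 probe sets that were at least 1.5-fold apart in a pair of retina arrays, in red for the lesioned and control retinas of day 14, in orange for the earlier days and in grey for unlesioned retinas of the same array group. The day 14 bar stands at 2.05%, below the 6.35% to 8.72% of the unlesioned pairs.

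By the call rule, 90 probe sets (1.31%) were higher and 32 (0.465%) were lower in the lesioned retina. Taking 1 probe set for each gene, that with the highest mean signal, 82 genes were higher and 26 lower. Of the 82, 16 passed the filter on low signals only through their lesioned arrays, where for all 5969 genes it was 132. The higher side held the larger differences, with 17 probe sets past 2-fold against 1 on the lower side. When the day 14 lesioned array was set against all 6 unlesioned retinas in limma with a term for the array group, 0 of 9301 probe sets (0.0%) had an adjusted p under the threshold of 0.05. At unadjusted p under 0.05, 239 did, 150 higher and 89 lower, and the smallest adjusted p in limma was 0.424, given to rrm2l and prph among the named genes.

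The leading higher gene was mmp9, a secreted matrix metalloproteinase made by reactive Müller glia and leukocytes. Its signal was 191.5 in the lesioned retina of day 14, 13.4 in the matched control, 56.3 in the true control and 19.1 in the day 2 control. The lesioned value lay above all 6 unlesioned retinas, and the difference was 1.93. The unlesioned signals, 13.4 to 65 over the 6 retinas, are in the dim range, so the size depends on the pseudocount, with 2.82 at a pseudocount of 16 and 1.36 at 100. The gene is among those that passed the filter only through lesioned arrays. On days 2, 3, 5 and 7 its differences were 3.96, 3.62, 4.22 and 3.52, so mmp9 kept part of its early difference. The mean over those 4 days was 3.83 ± 0.141 (SE) with a limma adjusted p of 6.09e-10. The drop from that mean to day 14 was estimated at -1.90 ± 0.325 (SE), with a limma adjusted p of 0.115.

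Second was tmsb, a thymosin beta that binds actin monomers and that in zebrafish marks growing neurons. It read 458.4 in the lesioned retina and 104.1, 99.9 and 84.3 in the day 14, true and day 2 controls, a difference of 1.72. Its differences of days 2, 3, 5 and 7 were 0.78, -0.09, 1.63 and 2.89, which places its largest values late. Next came tubb5, a beta tubulin of microtubules, at 3027.3 against 991, 655.8 and 616.6, a difference of 1.56. Its earlier differences of 0.52, 0.33, 1.51 and 2.22 ran in the same order as those of tmsb.

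The major vault protein gene mvp, which codes for the shell of a large cytoplasmic particle, had a signal of 159.1 against 27.7, 31.8 and 25.7 in the 3 unlesioned retinas. Its difference stepped from 3.44 on day 2 over 2.09, 2.09 and 1.61 to 1.43 on day 14. The intermediate filament gene prph, peripherin, typical of neurons that extend long axons, stood at 346.5 against 99.4, 78.6 and 89.4, a difference of 1.41 in the probe set used and 1.5 in its other one. The growth cone protein gene gap43, which is switched on in regrowing optic axons, was at 738.8 against 268.3, 331.7 and 281.2, a difference of 1.31. All 3 lesioned values lay outside the range of the 6 unlesioned retinas.

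Stress transcription factors also remained apart. The gene atf3, induced in injured neurons, had a signal of 415.7 in the lesioned retina against 144.3, 207.3 and 256 in the unlesioned ones. Its difference of 1.26 was close to the 1.2 of day 7 and under the 3.00 of day 2. The related factor atf5a read 1204.8 against 482.3, 404.7 and 733.1, and its difference of 1.24 was no smaller than the 1.18, 1.06, 0.85 and 0.82 of the earlier days. For jun, a subunit of AP-1, the signal was 956.9 against 544.7, 386.3 and 652.4, a difference of 0.76 after 2.60 on day 2. A second probe set of jun, at 276.8 against 229.5 in the matched control, differed by only 0.23, short of the call.

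The remaining leaders were of mixed roles. Ribonucleotide reductase gene rrm2l, needed to make DNA precursors, was at 594.2 against 195.1, 152.3 and 175.2, a difference of 1.39. The gene b2m, the light chain of MHC class I, was at 2387.6 against 1049.9, 834.8 and 717.7, a difference of 1.15. The mitochondrial carrier gene ucp2 and the alpha tubulin gene tuba8l3 differed by 1.09 and 1.08. The 20 leading genes are drawn in the plot of signals, where the lesioned array is the highest of the 4 for each of them, by little for igf1rb, whose day 2 control read 79.8 beside 89.4 in the lesioned retina.

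**Figure D2:**
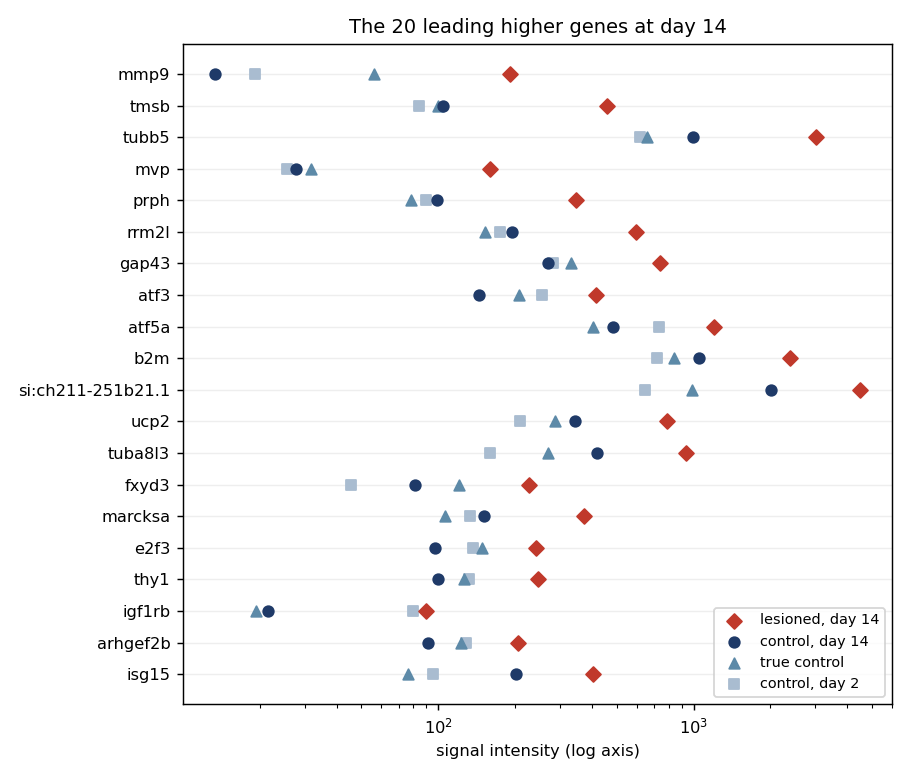
Signal intensity on a log axis of the 20 higher genes with the largest day 14 differences, with the lesioned retina of day 14 as a diamond and the day 14 control, true control and day 2 control as a circle, triangle and square. For tubb5 the lesioned array reads 3027.3 and the unlesioned arrays 616.6 to 991, while for igf1rb the day 2 control at 79.8 lies near the lesioned 89.4.

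To separate what persisted from what had faded, an early response was defined from the other arrays, in a limma fit of days 2, 3, 5 and 7 paired by day. In it 423 of 9301 probe sets rose (4.55%) and 110 fell (1.18%) at an adjusted p under 0.05. With a single gene symbol there were 355 risen and 73 fallen probe sets, for 340 and 71 genes, and the day 14 arrays took part in choosing them only through the filter on mean signal. Of the 355, 57 passed the filter only through lesioned arrays. The fit itself shares no array with the day 14 difference. The day 2 control, however, is both in the fit and in the range of the 3 unlesioned retinas. Calls and range counts of these sets at day 14 are therefore not fully independent of the fit. The values of days 2 to 7 chose these sets, which by itself makes them larger there. A smaller value at day 14 is thus partly built in.

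Of the 355 early risen probe sets, 45 (12.7%) were still called higher at day 14, against 1.31% of all tested. A further 96 (27.0%) lay within the range of the 3 unlesioned retinas, where 48.0% of all tested did. The other 214 (60.3%, against 50.3% of all tested) lay outside that range without a call, 196 above it and 18 below it. Over the 355 the median difference was 0.64, 0.76, 0.73 and 0.66 on days 2, 3, 5 and 7, which chose the set, and 0.20 on day 14. Above 0 on day 14 were 281 of 355 (79.2%), where 49.9% of all tested probe sets were. At day 14, 308 of 355 (86.8%) were under 1.5-fold, yet 241 (67.9%) still read above all 3 unlesioned retinas, where 25.3% of all tested did. These counts depended on the day 14 control. Against the mean of the true and day 2 controls 117 were still higher, 42 lay in range and the median was 0.38. Of all tested probe sets 351 were called higher there, with only these controls as the range. The day 2 control also helped to choose the early risen set, so part of this move can be built in.

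Of the 73 early fallen probe sets 1, for the ferritin heavy chain gene fthl30, was still called lower. Within the unlesioned range lay 34 (46.6%) and outside it without a call 38 (52.1%). Of all tested probe sets 48.0% and 50.3% did. The 38 were not even on both sides, with 35 below the range and 3 above it. Including fthl30, 36 of 73 (49.3%) still read below all 3 unlesioned retinas, where 26.7% of all tested did. The median difference of the 73 moved from -0.51, -0.67, -0.42 and -0.41 on days 2, 3, 5 and 7 to -0.07 on day 14. Against the mean of the true and day 2 controls, without the day 14 control, 16 were still lower and the median was -0.34. Of all tested probe sets 266 were called lower there, and the day 2 control had again helped to choose the set. The gene fthl30, whose product stores iron, read 2771.1 in the lesioned retina against 4421.8, 4555.3 and 4177.9 in the unlesioned ones, a difference of -0.67. Its call held against the 3 retinas of the array group but not against the range of all 6.

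**Figure D3:**
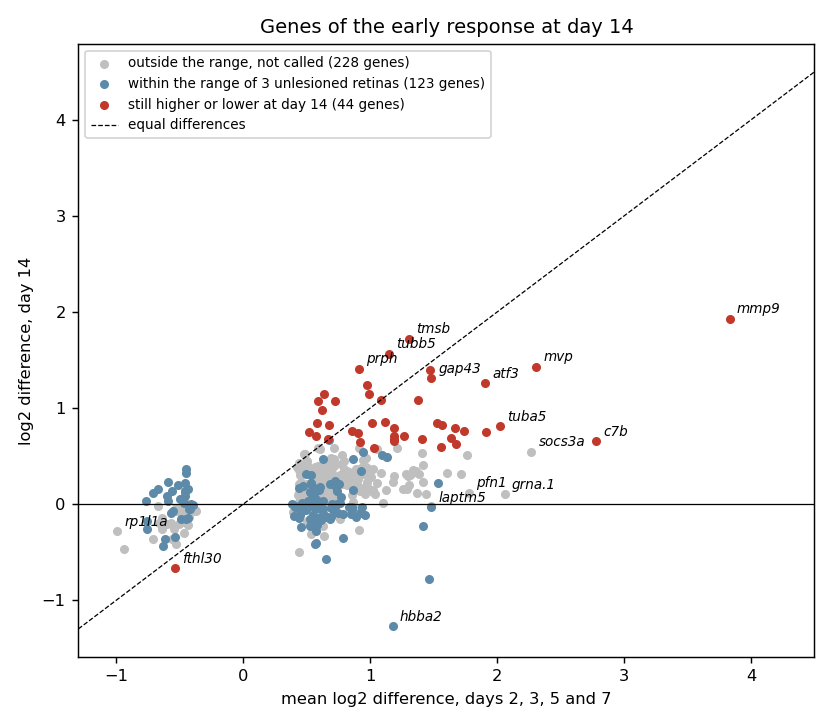
Each point is a gene that rose or fell in the paired fit of days 2 to 7, with its mean log2 difference on those days on the horizontal axis and its day 14 log2 difference on the vertical axis. Most points lie between the dashed line of equal differences and 0, with 44 genes in red still higher or lower at day 14 and tmsb, tubb5 and prph above the dashed line.

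Seen from the day 14 side, 45 of the 90 higher probe sets (50%) had been early risers, against 5.16% of all tested, and none had been early fallers. Of the higher genes 19.5% and of the early risen probe sets 16.1% passed the filter only through lesioned arrays, against 2.21% of all genes. The day 2 control also serves both the early fit and the day 14 range. Part of this overlap can thus be built in. On the lower side 1 of 32 (3.12%) had fallen early. The 90 higher probe sets had median differences of 0.51, 0.42, 0.75 and 0.63 on days 2, 3, 5 and 7. The 32 lower ones had earlier medians of -0.04, 0.10, -0.09 and 0.04, so as a group the lower calls had no counterpart on the earlier days. Among the 43 genes that had risen early and were still higher, the median difference was 0.98, 1.03, 1.36, 1.1 and 0.82 from day 2 to day 14, and day 14 was the smallest of the 5 days for 16 of them and the largest for 5.

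Among the 24 gene lists, that of axon growth and cytoskeleton held the most genes called higher at day 14. Of 36 tested, 14 were higher and 1 lower at day 14, against 82 and 26 of 5969 genes, and the list's median difference of 0.35 lay in the range of its earlier medians of 0.25 to 0.36. Of its 15 early risers 11 were still higher and 2 within the unlesioned range. The list was used earlier on these data and its members overlap with those of stress genes, as atf3 and jun are in both. In a whole-tissue array a changed number of cells of a type and a changed amount of RNA per cell cannot be told apart.

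The higher members included genes of microtubules, actin regulators and intermediate filaments. They also included the vault gene mvp and the transcription factor genes atf3 and jun. After tmsb and tubb5 came the alpha tubulin genes tuba5 and tuba1b, with differences of 0.81 and 0.63. The MARCKS genes marcksa and marcksb, which link the membrane to actin, differed by 1.07 and 0.74, though a second probe set of marcksa stood at -0.10. The internexin gene inab, a neuronal intermediate filament, differed by 0.62 and inaa by -0.02, so related genes of a family did not move alike. The lower member, actc1a, an alpha actin of muscle, was at 227.2 against 379, 304.2 and 400.6, a difference of -0.63.

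Part of this group had shown little difference earlier. The stathmin gene stmn4, whose product loosens microtubules in growing neurons, was at 2226 in the lesioned retina against 1211.6, 1554.8 and 1391.6. That difference of 0.85 followed 0.25, -0.24, 0.10 and -0.08 on days 2, 3, 5 and 7, and was 0.58, short of the call, against the mean of the true and day 2 controls. The second stathmin gene, stmn2a, read 1930.8 against 1133.9, 1014.9 and 1049.2, a difference of 0.74 after 0.15, -0.05, 0.24 and -0.21. In both the lesioned retina of day 14 lay above all 6 unlesioned retinas, and neither was called in the fit that compares day 14 with the earlier days.

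Genes typical of ganglion cells pointed the same way for a few members only. Of 17 tested, 5 were higher and none lower, against 82 (1.37%) and 26 (0.436%) of 5969 genes, with a median of 0.01. A second probe set of the list member elavl3, an RNA-binding protein gene of neurons, was called lower with -0.60, where the one used stood at -0.12. The 5 were tubb5, gap43, thy1, stmn2a and uchl1, and all but thy1 and uchl1 were also in the axon growth list. The surface glycoprotein gene thy1, a ganglion cell marker in mammals, was at 245.9 against 100, 125.9 and 131.8, a difference of 0.98 after 0.15, 0.27, 0.52 and 0.60. The neuronal hydrolase gene uchl1 was at 2078.1 against 1258, 1214.6 and 1181.4, a difference of 0.70. The transcription factor genes that define ganglion cells did not share this, with pou4f2 at 439 against 423, 346.6 and 496.8, inside the unlesioned range, and isl2a at a difference of 0.18.

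In all, 39 of the 82 higher genes had not been called early, and 18 of them had been under 1.5-fold on each of days 2, 3, 5 and 7. Besides stmn4 and stmn2a these held tagln3b, a calponin family gene of neurons, at 0.66, and syn1, the synaptic vesicle gene synapsin, at 0.63. They also held ppat and mthfd1b, enzymes of purine and folate metabolism, at 0.82 and 0.64. In several the matched control was the lowest unlesioned retina of the array group. For mthfd1b the lesioned signal was 171.8 against 91.9, 118.2 and 166.3 in the day 14, true and day 2 controls. For ppat it was 227.7 against 107.2, 142.8 and 157.1, and for syn1 614.8 against 379.8, 439.6 and 387.1. For the nucleolar gene npm1b, at 0.69, the lesioned signal of 338.9 stood near the 333.8 and 325.4 of the true and day 2 controls, and the matched control was low at 191.4. In limma, 0 of 9301 probe sets (0.0%) differed between day 14 and the mean of days 2 to 7 at an adjusted p under 0.05. At unadjusted p under 0.05, 335 did, 112 with a higher and 223 with a lower difference at day 14. The plot of day courses sets genes of this kind beside persistent ones and ones near their matched control. Of the latter, pfn1, grna.1 and c1qc still lay outside the unlesioned range.

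**Figure D4:**
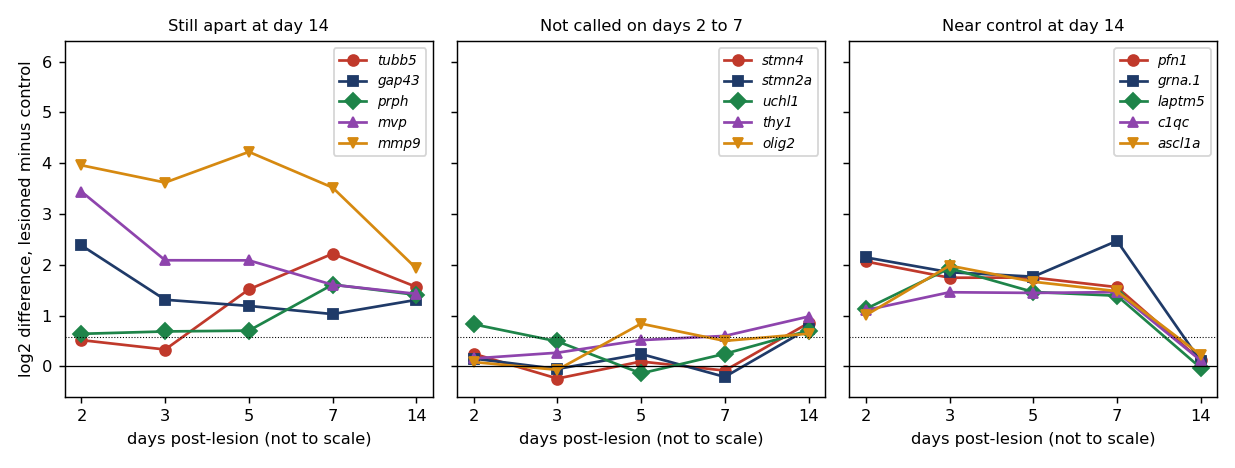
Log2 difference between lesioned and control retina on each day for 5 genes that stayed apart, 5 higher at day 14 without a call in the early fit and 5 near control at day 14, with the dotted line at 1.5-fold. Day 14 differences run from 1.31 for gap43 to 1.93 for mmp9 in the left panel, from 0.64 for olig2 to 0.98 for thy1 in the middle and from -0.03 for laptm5 to 0.22 for ascl1a on the right.

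Many of the higher genes read higher in brain than in the unlesioned retinas. Brain signal lay above all 3 unlesioned retinas of the array group for 63 of the 82 higher genes (76.8%), for 6 of the 26 lower ones and for 2431 of 5969 tested (40.7%). The call rule uses the same 3 retinas and favours genes that are low in them. In addition, 16 of the 82 passed the filter only through lesioned arrays. Part of the larger share can thus be built in. For stmn4 brain read 6484.1 and for fxyd3, a regulator of the sodium pump, 5712.7 against 226.3 in the lesioned retina of day 14. The defining brain markers were at retinal level in the lesioned retina, as their sums above show. For mvp and mmp9 brain read 102.9 and 94.6, under the 159.1 and 191.5 of the lesioned retina.

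Progenitor and reactive glia genes had partly returned. Of 32 tested on this list 5 were higher and none lower at day 14, against 1.37% and 0.436% of all genes, with a median difference of 0.18, and of 9 early risers 4 were still higher and 1 was within the unlesioned range. Besides mmp9 the higher members were sox11b, mmp14b, lgals2a and olig2. The neural progenitor factor gene sox11b was at 557.8 against 288.2, 346.4 and 366.2, a difference of 0.85 after 0.92, 0.34, 1.76 and 1.04. Against the mean of the true and day 2 controls it was 0.58, short of the call. There 9 of the list's 32 genes were called higher and none lower, where 290 and 223 of 5969 genes were. The membrane-bound metalloproteinase gene mmp14b was at 238.6 against 113.3, 121.2 and 123.7, a difference of 0.82 and near its earlier values of 0.74 to 0.96 on days 3 to 7.

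The gene olig2, a factor of neural progenitors and oligodendrocytes, was at 305.1 against 177.4, 160.4 and 127.6, a difference of 0.64. By contrast ascl1a, the proneural factor that zebrafish Müller glia need for regeneration, stood at 0.22 after 1.01, 1.98, 1.67 and 1.48, inside the unlesioned range. The cytokine signalling brake socs3a had a signal of 685.8 against 454.1, 398.5 and 342.6 and a difference of 0.55, short of the call, after 3.44 on day 2. Its paralog socs3b stood at 0.31 after 1.53, 2.17, 1.84 and 1.33.

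Mature Müller glia genes had a median difference of 0.06, with 11 of 22 within the unlesioned range, a share near the 48.0% of all tested probe sets. Of the 22, 1 was higher and none lower, against 1.37% and 0.436% of all genes. This was fabp7a, a fatty acid binding protein of radial glia, at 7901.5 against 4429.7, 3312.1 and 2153.1, a difference of 0.83. It had differed by 1.24, 0.85, 1.96 and 2.22 on the earlier days, when it was among the list's 5 risers. The filament gene vim was at 1368.8 against 898.2, 720.7 and 668.9, above all 3 but with a difference of 0.58, just short of 1.5-fold. The list member icn stood at 0.49 in the probe set used and 0.60 in another, which was called higher. After quantile normalization 2 of the 22 were higher. The glial genes gfap and glula were at 502.9 and 13023.2 in the lesioned and 484.8 and 13801.4 in the control retina, differences of 0.05 and -0.08, and rlbp1a differed by 0.07.

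A few cell cycle genes were still higher. Of 37 cell cycle and replication genes 4 were higher, against 1.37% of all genes, and none lower, and the median of 0.23 was under the 0.42, 0.40 and 0.54 of days 3, 5 and 7 and above the 0.13 of day 2. The higher genes were rrm2l, the G1 cyclin gene ccnd1 with 0.80, the nuclear import gene kpna2 with 0.69 and the mitotic cyclin gene ccnb1 with 0.62. For ccnd1 the signal was 442.4 against 233.8, 180.4 and 278.2, with the lesioned retina above all 6 unlesioned ones. The replication genes pcna and mcm2 differed by 0.24 and 0.23, and 27 of the 37 lay above 0. Of the list's 14 early risers 3 were still higher and 3 within the unlesioned range.

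Immune genes had come down from a large early difference, and most still read higher than in the matched control. The median over 35 genes was 0.83, 0.94, 1.01 and 0.86 on the earlier days and 0.31 on day 14, with 30 of 35 above 0. Of the 35, 6 were higher at day 14 and none lower, against 1.37% and 0.436% of all genes. Of 24 early risers 5 were still higher and 5 within the unlesioned range. The 6 higher genes were b2m, the ubiquitin-like interferon gene isg15, the granulin gene grna, the lectin-binding gene lgals3bp.1, the actin nucleation gene arpc1b and the MHC class II chaperone gene cd74a. For isg15 the signal was 405.5 against 201.7, 76.5 and 95.3, a difference of 0.86, and for grna it was 208.9 against 94.6, 96.3 and 87.5, a difference of 0.84.

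Several genes that define leukocytes had come close to their matched control, though not all. The lysosomal gene laptm5 read 195.3 against 200.7 in the matched control, a difference of -0.03 after 1.13, 1.93, 1.46 and 1.39. The complement gene c1qc, made by microglia, was at 154.8 against 139.1, a difference of 0.12 after 1.11 to 1.46. The leukocyte marker genes lcp1 and coro1a differed by 0.16 and 0.14, though both lay above all 3 unlesioned retinas of the array group. The pan-leukocyte gene ptprc, at 194.9 against 113.6, 148.3 and 109.9, differed by 0.58 and lay just outside the call. The macrophage gene cd68, at 273 against 164.7, 119.1 and 66.9, was called higher with 0.59. The summed signal of 4 leukocyte markers was 738.5 in the lesioned retina, 618.5 in its control and 428.5 and 510.1 in the true and day 2 controls.

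The matched control itself thus stood above the other unlesioned retinas in immune genes, and the reading of this list depended on it. Against the mean of the true and day 2 controls, without the day 14 control, 17 of 35 immune genes were higher, 1 was lower and the median was 0.54. The same was so for extracellular matrix genes, where 15 of 33 with a median of 0.54 took the place of 6 with a median of 0.25. Over all 5969 genes the calls went from 82 to 290 higher and from 26 to 223 lower by that change. Genes that lost their calls by it included igf1rb, tgfbi, actc1a, wars1 and ablim1a, which is not a full list. The axon growth list gave 15 higher and 1 lower there, beside 14 and 1 against the matched control.

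Of 33 matrix genes 6 were higher and none lower against the matched control, where 1.37% and 0.436% of all genes were. The 6 were mmp9, mmp14b, lgals2a, lamb1a, anxa5b and tgfbi. The galectin gene lgals2a was at 357.5 against 185, 103.4 and 119.2, a difference of 0.79 after 1.45 to 1.78. Its call, like those of tuba5, inab and cd74a, was lost with the range of all 6 unlesioned retinas, which is not a full list. The laminin gene lamb1a, a chain of basement membrane laminin, was at 179 against 88, 85.9 and 88.8, and its 0.73 was its largest difference of any day, after -0.18, 0.40, 0.54 and 0.66. The fibrillar collagen genes col1a1a and col1a2 stood at 0.30 and 0.29, short of the call but outside the unlesioned range. On days 2, 3, 5 and 7 col1a1a had differed by 0.375, 1.315, 1.80 and 1.77, and col1a2 by 0.308, 1.055, 1.68 and 1.72. Of the 16 early risers on this list 4 were still higher and 2 within the unlesioned range.

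Some of the strongest early differences were much smaller at day 14. The complement gene c7b, which had differed by 3.69, 3.07, 2.72 and 1.63, was still called higher with 0.65, at 235.8 against 131.7, 94.2 and 145.3. The profilin gene pfn1, an actin regulator, read 691.6 against 633.1 in the matched control, a difference of 0.12 after 1.56 to 2.06. The granulin gene grna.1 stood at 0.10 after 2.15, 1.85, 1.77 and 2.47, unlike grna. For pfn1 and grna.1 the step from the early mean to day 14 was -1.66 and -1.96, each with a limma adjusted p of 0.115, and both lesioned values still lay above all 6 unlesioned retinas.

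Ribosomal protein genes no longer stood above the matched control. Of 74 tested 38 had risen early and none was higher at day 14. Within the unlesioned range lay 17 of the 38, where 27.0% of all early risen and 48.0% of all tested probe sets did. The median over the 74 was 0.33, 0.64, 0.21 and 0.61 on days 2, 3, 5 and 7 and -0.06 on day 14, or 0.01 after quantile normalization. The direction turned without the day 14 control, to a median of 0.14 with 1 higher gene against the mean of the true and day 2 controls. For rplp2, a stalk protein of the large subunit, the signal was 7213.1 against 9563.9, 9772.2 and 9266, a difference of -0.41 below the call.

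A few stress signalling genes were called higher at day 14. Of 51 immediate early, stress and JAK-STAT genes 4 were higher and none lower, against 1.37% and 0.436% of all genes. The 4 were atf3, atf5a, jun and the kinase gene pim2, and the list's median was -0.01. The AP-1 gene junba, an early riser, stood at -0.03 and cebpd, a factor of the acute phase, at -0.11. Without the day 14 control, against the mean of the true and day 2 controls, 13 of the 51 were higher and 2 lower. The median was 0.10 there and pim2 lost its call, while of all 5969 genes 290 were higher and 223 lower. Among 41 protein folding genes and 43 proteasome genes none was called at day 14.

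Photoreceptor genes were slightly on the lower side without any call against the matched control. Against the mean of the true and day 2 controls 2 of 21 rod and 3 of 18 cone genes were called lower. In that setting 223 of 5969 genes were. Of 21 rod genes 4 lay above 0 and the median was -0.16, or -0.05 after quantile normalization, following -0.38, -0.42, -0.15 and -0.24 on the earlier days. The rod transducin gamma gene gngt1 was at 24279.3 against 31621.5, 30147.6 and 30912.3, a difference of -0.38, below all 3 unlesioned retinas of the array group. Of the list's 3 early fallers 1 lay within the unlesioned range and none was still called lower, with guca1b, a guanylate cyclase activator, at -0.36 after -0.72, -0.74, -0.40 and -0.39.

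Of 18 cone genes 2 lay above 0, with a median of -0.13 that turned to 0.03 after quantile normalization. The cone phosphodiesterase inhibitor gene pde6hb was at 14257.9 against 19371.7, 20676.3 and 20113.8, a difference of -0.44. The green opsin gene opn1mw1 was at 14287.9 against 19038.2, 15785.7 and 14886.3, a difference of -0.41, and the blue opsin gene opn1sw2 differed by -0.33. These signals are near the top of the arrays, where the highest reading was 29844.2 on the lesioned and 34083.5 on the control array of day 14, and whether signals this high are compressed was not tested.

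Respiratory chain genes were mostly lower by small amounts. Of 73 tested 10 lay above 0 and the median was -0.21, or -0.16 after quantile normalization, after -0.01, 0.01, -0.14 and 0.00 on the earlier days. The 2 lower calls, where 0.436% of all genes were called lower, were both of complex I. The gene ndufb8 was at 3817.9 against 5773.6, 4893.8 and 4117.4, a difference of -0.59, and ndufv2 at 1945.1 against 3007, 2603.6 and 2270.9, a difference of -0.62 in the probe set used and -0.10 in its other one. Both calls were lost against the mean of the true and day 2 controls, where the list's median was -0.11, and that of ndufb8 also after quantile normalization and with a pseudocount of 100. Of the 73, 36 lay within the range of the 3 unlesioned retinas, a share near the 48.0% of all tested probe sets.

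The other lower genes were of scattered roles and mostly without an early difference. The largest was dedd1, a gene of the death effector domain family, at 167.8 against 458.3, 260.6 and 377.2, a difference of -1.22 after -0.37, 0.02, -0.10 and 0.16. It lay below the 3 unlesioned retinas of its array group. The somatostatin gene sst6.1 was at 1699.9 against 2711, 3169.5 and 2364.6, a difference of -0.66. The splicing factor gene u2af1 and the cyclophilin gene ppig differed by -0.66 and -0.73. The tryptophanyl-tRNA synthetase gene wars1, with -0.75, had been higher on days 2 and 3, by 0.73 and 0.97.

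Among genes that had fallen early, the photoreceptor gene rp1l1a was still below all 3 unlesioned retinas. It read 548.4 against 677 in the matched control, a difference of -0.28 after -0.62, -1.54, -1.15 and -0.67, with the true and day 2 controls far higher at 2114.1 and 1356.3. The nuclear receptor gene nr2f1a was at 922.3 against 845.1, 989.8 and 683.8, inside the unlesioned range, after -0.75, -1.17, -0.35 and -0.58. The antiapoptotic gene faimb was at 0.03 after -0.59 to -1.13.

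**Figure D5:**
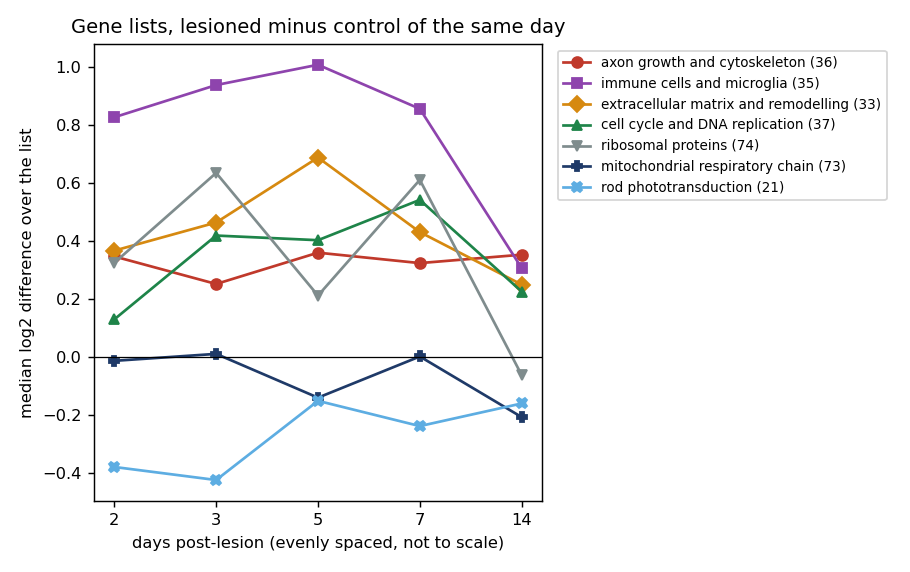
Median log2 difference between lesioned and control retina over the tested genes of 7 lists on each day, with the number of genes in the key. The axon growth list stays near its earlier level at 0.35 on day 14, the immune list drops from 0.86 on day 7 to 0.31, and ribosomal protein genes come to -0.06.

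Lists of other cells and tissues showed few calls. None of 36 inner retinal neuron genes, 11 genes of retinal pigment epithelium and pigment cells, 7 muscle genes, 30 circadian clock genes or 10 cholesterol synthesis genes was called against the matched control. With 82 higher and 26 lower of 5969 genes, lists of this length would hold few calls or none. Higher calls in other short lists were olig2, 1 of 6 myelin genes, and fxyd3, 1 of 9 brain genes. Against the mean of the true and day 2 controls 9 clock genes were lower and 3 higher, 5 cholesterol and 3 pigment genes were higher, and 2 inner neuron genes were lower. In that setting 290 of 5969 genes were called higher and 223 lower. Haemoglobin genes stood in the other direction from the earlier days, with hbaa1 at 3723.8 in the lesioned retina against 6428.8 in its control, 1000 in the true control and 597.5 in the day 2 control. That difference of -0.78 followed 1.93, 2.53, 0.78 and 0.60, and hbba2 differed by -1.27. The matched control held more of both transcripts than the other unlesioned retinas of the array group, and both lesioned values lay inside the unlesioned range.

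Just inside and just outside the 1.5-fold limit lay genes with nearly equal values. On the inside were olfml3b with 0.59, the macrophage gene cd68 with 0.59 and rcc2 with 0.60, and on the outside pdlim1 and ptprc with 0.58 each and anxa2a with 0.58. Under a higher limit of 2-fold 15 of the 82 higher genes and 1 of the 26 lower genes were left.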

How the data were processed

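Total RNA was hybridized to 12 Affymetrix zebrafish arrays, 1 for each condition and day. The authors deposited 1 linear signal intensity for each probe set, from GCOS per the submitters' processing notes, and its trimmed mean is 500.1 on each array. For the GCOS version and settings nothing is stated. Names come from GEO's platform annotation, in which 10795 probe sets had 1 symbol, 135 several and 4572 none. Of the 10795, 10711 identifiers were found in RefSeq's gene table (GRCz12tu), which changed 1 symbol. Sequences and coordinates were not used here.

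Intensities were taken as log2(signal + 50), and probe sets under the 40th percentile of mean signal were left out. Tests used limma 3.58.1 (lmFit, eBayes with trend) in R 4.3.3, with Benjamini-Hochberg adjustment over 9301 probe sets, and the scripts were tested on simulated data. Days 2, 3, 5 and 7 were paired by the day in the titles and by the design text's matched animals. Deviations of the control and lesioned array of a day from their group means correlated at 0.92, 0.755, 0.58 and 0.732 on these days. Day 2 lies in another array group than days 3, 5 and 7. These correlations therefore also hold the array group difference and do not by themselves show matched animals. The p-values treat different days as repeats and cover only the scatter of these arrays, some of which may be technical. The number of arrays limits the precision.

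The comparison, the 24 gene lists and the rules were chosen with earlier results of these data known. Named genes were the 20 leading higher and 10 leading lower calls, the 15 and 8 leading early genes, list members called or with the largest differences, the 5 genes in each direction with the smallest adjusted p between day 14 and the earlier days, and marker genes. Other genes named for a list or for the limit of a call were chosen after their values were seen. Alternatives were 2 other pseudocounts, quantile normalization, other filters, folds and ranges, no pairing, and leaving out each array.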

Additional observations from a re-analysis of the deposited data

Results flagged for a closer look

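Among the lesioned retinas of the 5 days, atf3 stood apart on day 2 with a signal of 2398.9, where the other 4 days read 415.7 to 645.9. For b2m the lesioned retina of day 3 stood apart on the low side with 659.3, where the others read 2278.3 to 2752.3. These were 2 of 60 groups examined, and chance gives about 1 in 20.

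In 6 genes called at day 14 the difference ran against all 4 earlier days. It was -0.604 for anapc13, -0.607 for tab1 and -0.638 for snapc1b, each with earlier differences at or above 0. It was 0.625 for ablim1a, 0.718 for slc39a13 and 0.768 for insb, each with earlier differences below 0. In limma the step from the earlier days to day 14 had an adjusted p of 0.999 for each of the 6.

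Of 2417 probe sets without a single symbol, 39 were called at day 14. The share was similar among the 6884 with a single symbol, where 90 were called higher and 32 lower. Of the 39, 5 passed 2-fold. The lesioned and control signals of these 5 were 1371.7 and 466.3, 2052.1 and 651.4, 1242.8 and 558.1, 160.9 and 47.6, and, in the 1 lower probe set, 82.2 and 223.1.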

How the results depend on the processing

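Of the 82 higher and 26 lower genes, 82 and 25 kept their calls with a pseudocount of 16 (25 lower genes measured), 54 and 9 with a pseudocount of 100, and 80 and 24 after quantile normalization. With the range of all 6 unlesioned retinas 66 and 21 kept them, and against the mean of the true and day 2 controls 59 and 12. Dropping the true or the day 2 control from the range, alternatives chosen after seeing the data, kept 82 and 26.

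Counts of probe sets moved more. Against 90 higher and 32 lower, a pseudocount of 100 gave 59 and 12, quantile normalization 52 lower, no filter 216 and 98, a filter at the 60th percentile 40 and 18, and a limit of 2-fold 17 and 1. Of the early risen, 25 were still higher and 63 in range with the 60th percentile filter, 15 were still higher at 2-fold, 226 were in range of all 6 unlesioned retinas, and with early means of at least 2-fold 29 were still higher and 8 in range with a median of 0.445. Of the early fallen, none (0) was still lower after quantile normalization, with no filter, at 2-fold or with all 6 retinas, and 14 were in range with no filter and 53 with all 6 retinas. The paired fit gave 249 risen with the 60th percentile filter and 42 fallen with no filter. Without the replicate block, that is with no pairing by day, it gave 1 risen and 0 fallen (373 at unadjusted p under 0.05).

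Leaving out the day 14 control gave 351 higher and 266 lower. Leaving out 1 array or day at a time, early risen still higher numbered 35 to 117, in range 42 to 89 (49 without day 7), and their median was 0.179 to 0.376. Early fallen still lower numbered 0 to 16, in range 9 to 38, with a median of -0.342 to -0.043. The upper counts still changed and the outer medians are those without the day 14 control. The paired fit gave 232 to 369 risen and 30 to 128 fallen (62 without day 2, 31 without day 3 and 30 without day 7). Calls against the unlesioned retinas stayed at 0, with 120 to 504 at unadjusted p under 0.05. Day 14 against the earlier days gave 0 to 1, the 1 being hbba2 without day 3, with a limma adjusted p of 0.0284. The cause of these moves was not tested. No early fallen set remained at a 2-fold mean.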
